A study of Rattus norvegicus with 20 samples.

Results

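Ramp2, Pecam1, Plvap, Cldn5, Kdr, Flt1, Tek and Vwf are genes that mark the endothelium, the cells that line blood vessels. They were followed here in the olfactory and the respiratory epithelium of the rat nose. The members are the probe sets (groups of short probes that read 1 transcript) whose only annotated gene symbol is one of these 8 names: 11 of 31042 probe sets tested, for 8 of 14217 named genes. Kdr had 2 probe sets, Flt1 had 3, and each of the other 6 genes had 1.

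RNA came from epithelium that was collected by hand from the septum and turbinates of untreated adult Sprague-Dawley rats without a genetic modification or disease, and each sample was put on 1 Affymetrix rat expression array. Males gave 6 olfactory and 6 respiratory arrays, and females gave 2 olfactory and 6 respiratory arrays, from 7 male and 6 female rats. Both male groups held 3 rats of 11 weeks, 1 of 13 weeks and 2 of 14 weeks. The female olfactory rats were 13 and 14 weeks old, and the female respiratory rats were 1 of 11, 3 of 13 and 2 of 14 weeks. Of the 13 rats, 7 gave both tissues, 2 of them female and 5 male.

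Values are deposited signals, a linear brightness scaled to a common level on every array, and the number of arrays limits their precision. A signal counts as above background where it exceeds the level that 95% of the bacterial control probe sets stay under on that array, which lay between 28.2 and 64.9. Signals of different probe sets do not compare as amounts of RNA, so only the same probe set is compared between samples. Changes are log2 differences of group means, olfactory minus respiratory, from a limma fit on log2(signal + 16) over all 20 arrays. SE is the standard error of that fit, and adjusted p is Benjamini-Hochberg's over all 31042 probe sets, called under 0.05. Omp, the marker of mature olfactory neurons, had signals of 21368 to 26936 on male olfactory arrays, against 815 to 5359 on male respiratory arrays, and of 25725 and 26058 on female olfactory arrays, against 1424 to 9625 on female respiratory arrays. Omp was thus well above background in respiratory samples too. Of the 11 probe sets, those of Cldn5, Ramp2, Tek and Vwf were above background on all 20 arrays, so transcripts of these genes were measured in both tissues. In such bulk samples, the number of endothelial cells, the RNA per cell and a share from other cell types cannot be told apart. The cells that made a transcript, that of Cldn5 included, were not identified.

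Blood vessels of different organs differ in how easily they let solutes through. Claudin-5, the product of Cldn5, seals the junctions between endothelial cells and is known above all from the vessels of the brain, the blood-brain barrier. Plvap forms the diaphragms that span the pores of fenestrated, leaky capillaries, and is low in mature brain vessels. Kdr and Flt1 are receptors for vascular endothelial growth factor, Tek is the receptor for angiopoietins, Ramp2 is the partner that turns the calcitonin-receptor-like protein into an adrenomedullin receptor, Pecam1 is an adhesion molecule of endothelial junctions, platelets and leukocytes, and Vwf is the clotting protein stored in endothelial cells and platelets.

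A promoter sequence was held for 4 of the 8 genes in the RefSeq table of the GRCr8 build (Cldn5, Plvap, Kdr and Flt1). The 250 bases before the start of Cldn5 and of Plvap are shown, because they stand for a sealed and a fenestrated vessel and differed in opposite directions between the tissues (Kdr, which also had an entry, was lower like Plvap). Both lie on the minus strand, Cldn5 at chr11:95718599-95718848 and Plvap at chr16:18231280-18231529. They are written 5′ to 3′, and capitals mark GGAA or its reverse TTCC, the core letters that ETS transcription factors, a family active in endothelium, bind.
Cldn5: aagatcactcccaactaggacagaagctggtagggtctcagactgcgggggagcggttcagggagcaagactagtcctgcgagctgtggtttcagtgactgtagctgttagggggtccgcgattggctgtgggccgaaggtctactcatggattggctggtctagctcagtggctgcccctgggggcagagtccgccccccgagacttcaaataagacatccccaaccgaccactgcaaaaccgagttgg
Plvap: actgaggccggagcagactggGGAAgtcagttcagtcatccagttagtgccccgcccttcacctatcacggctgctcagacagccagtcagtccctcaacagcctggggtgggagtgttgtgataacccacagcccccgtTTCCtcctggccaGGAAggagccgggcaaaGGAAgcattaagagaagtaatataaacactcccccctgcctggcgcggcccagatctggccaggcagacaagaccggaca
GGAA, read on both strands, occurred 0 times before Cldn5 and 4 times before Plvap. Of 33469 promoters of the same length, 93.2% held it at least once and 34.7% at least 4 times, so 4 matches are common. Kdr had 4 matches and Flt1 had 3, a number reached by 55.5% of promoters. TATAAA, the letters of a TATA box, occurred 1 time each before Plvap and Flt1, at any place and on either strand, as in 12.9% of promoters. The Plvap match lay at -60 from the start. ATTGT, a core bound by SOX factors and also read on both strands, occurred before none of the 4 genes, against 30.02% of all promoters. These matches describe letters in a window and are no evidence of binding.

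In male rats 6 of the 8 genes differed between the tissues, each through 1 probe set. Cldn5 was higher in olfactory epithelium, 4.09-fold. Ramp2, Pecam1, Plvap, Tek and Kdr were lower there, by 2.62- to 5.72-fold, while no Flt1 probe set and not Vwf passed. Among all probe sets, 25.2% were called in this comparison, 11.6% higher and 13.6% lower. The members' 1 higher and 5 lower calls of 11 thus stand beside a background of about 1 in 4, and their median change was -1.11, against -0.04 over all probe sets. In females the same 6 probe sets passed in the same directions, where 17.9% of all probe sets were called, 7.64% higher and 10.3% lower, and the medians were -0.99 for the members and -0.11 for all probe sets. The tissues did not overlap at all for 6 of the 11 probe sets in males, 6 of them lower, where 13.4% of all probe sets had no overlap and 7.19% had none and were lower. In females they did not overlap for 7 of 11, 6 of them lower, against 30.3% and 16.5% of all probe sets.

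RNA quality also differed between the tissues. The RNA integrity number, a scale of RNA breakdown on which higher is more intact, was 8.2 to 8.8 on 5 male olfactory arrays, against 9.1 to 9.3 on 4 male respiratory arrays, and 8.3 on both female olfactory arrays, against 8.7 to 9.3 on 6 female respiratory arrays. Since the ranges do not overlap within a sex, RNA integrity and tissue can barely be told apart. With it as a covariate over the 17 arrays that have a number, Cldn5 changed by 1.40 (limma adjusted p = 0.0532) and Kdr 1367948_a_at by -1.27 (adjusted p = 0.128) in males, so both calls were lost, and Ramp2, Plvap, Tek and Pecam1 kept theirs. The same model called 2347 probe sets in all in males, and the same arrays without the covariate gave 7203.

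**Figure D1:**
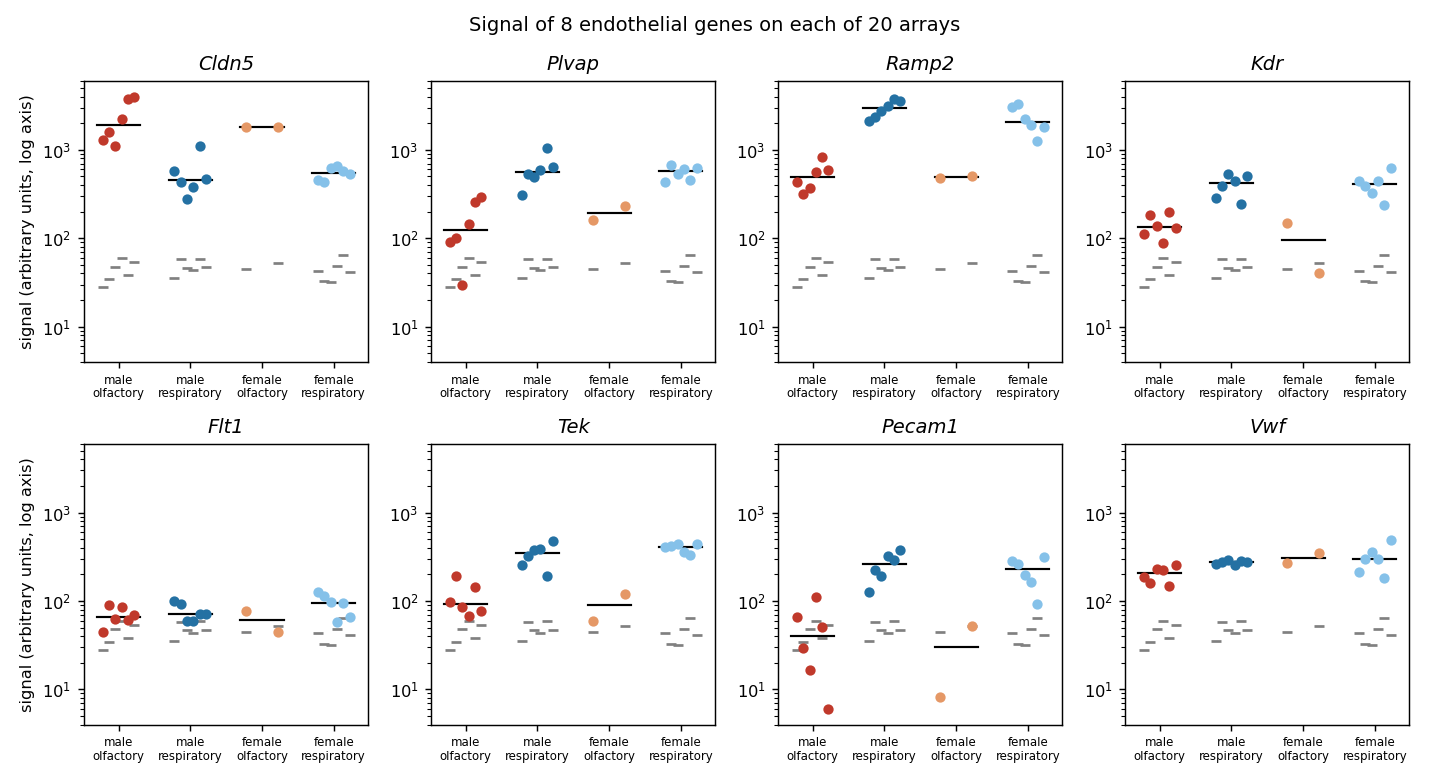
Deposited signal (log axis, arbitrary units) of the 8 genes by sex and tissue, for Kdr probe set 1367948_a_at and for Flt1 probe set 1369087_at; each point is 1 array, black lines are group medians and grey ticks are each array's background. Cldn5 lies higher in olfactory epithelium, with 1117 to 3951 on male olfactory arrays against 279 to 1119 on male respiratory arrays, while Ramp2, Plvap, Tek, Pecam1 and Kdr lie lower there.

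Cldn5 (probe set 1374104_at) had signals of 1284, 1596, 1117, 2218, 3761 and 3951 in olfactory epithelium of males 1, 2, 3, 4, 7 and 10, against 579, 435, 279, 376, 1119 and 466 in respiratory epithelium of males 1, 2, 3, 4, 7 and 8. The groups met at a single point, since the respiratory array of male 7 reached 1119 and the olfactory array of male 3 read 1117. In females the signals were 1827 and 1804 in olfactory epithelium, against 428 to 652 with a median of 553 in respiratory epithelium. All female olfactory arrays lay above all female respiratory arrays. The change was 2.03 (SE 0.31, limma adjusted p = 2.26e-05) in males and 1.72 (SE 0.43, adjusted p = 0.00738), or 3.29-fold, in females. The spread among male olfactory arrays was wide, with a mean log2 signal of 11.02 ± 0.77 (SD, n = 6), against 8.99 ± 0.66 (SD, n = 6) in male respiratory arrays. The female call was lost without either female olfactory array (adjusted p = 0.0874 without female olfactory 6 and 0.0664 without female olfactory 8). In such fits the lone olfactory array is assumed to vary like the other groups.

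Plvap (1368284_at), the fenestral diaphragm gene, went the other way. Its signals were 91, 101, 29, 146, 258 and 295 in olfactory epithelium of males 1, 2, 3, 4, 7 and 10, with male 3 below background, against 313 to 1049 with a median of 563 in male respiratory epithelium. Female olfactory arrays read 160 and 231, against 429 to 668 with a median of 575 in female respiratory arrays. No array of either olfactory group reached the lowest respiratory array of its sex. The change was -2.05 (SE 0.35, limma adjusted p = 0.000112), 4.13-fold lower, in males and -1.44 (SE 0.50, adjusted p = 0.0479), 2.71-fold lower, in females. The female call was marginal: it was lost in 7 of 8 fits that leave out 1 female array, with adjusted p up to 0.338 without female olfactory 6, and held without female respiratory 8 (adjusted p = 0.0386).

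Ramp2 (1367701_at) showed the widest gap between the tissues among members above background on all arrays. It read 319 to 824 with a median of 498 in male olfactory epithelium, against 2099 to 3797 with a median of 2947 in male respiratory epithelium. Female olfactory arrays read 486 and 507, against 1263 to 3280 with a median of 2065 in female respiratory arrays. The groups were separate in both sexes. The change was -2.52 (SE 0.24, limma adjusted p = 5.48e-08), 5.72-fold lower, in males and -2.08 (SE 0.34, adjusted p = 0.000164), 4.23-fold lower, in females. Its call held under all 24 alternative settings in males, with changes of -2.66 to -2.40, and under all 18 in females.

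Kdr, the main signalling receptor for vascular endothelial growth factor, was read by 2 probe sets that disagreed. Probe set 1367948_a_at gave 89 to 199 with a median of 134 in male olfactory epithelium, against 242 to 535 with a median of 417 in male respiratory epithelium. It gave 149 and 41 in female olfactory epithelium, the second of them below background, against 240 to 627 with a median of 415 in female respiratory epithelium. The groups were separate in both sexes, with changes of -1.39 (SE 0.28, limma adjusted p = 0.000628) in males and -2.08 (SE 0.40, adjusted p = 0.000832) in females. Probe set 1397868_at was above background on 5 of 20 arrays and its change was -0.02 (SE 0.38, adjusted p = 0.977) in males. With both averaged per gene, Kdr changed by -0.71 (SE 0.26, adjusted p = 0.0477) in males. Without female olfactory 8 the female change of 1367948_a_at was -1.31 and its adjusted p was 0.0830.

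Flt1, the other receptor for this growth factor and one that also traps it, gave low signals in every group. Probe set 1369087_at was above background on 19 of 20 arrays and read 45 to 90 in male olfactory epithelium, against 59 to 99 in male respiratory epithelium, and 77 and 45 in female olfactory epithelium, against 57 to 127 in female respiratory epithelium. The groups overlapped, and the change was -0.11 (SE 0.24, limma adjusted p = 0.793) in males and -0.48 (SE 0.34, adjusted p = 0.365) in females. Probe set 1377113_at, above background on 13 of 20 arrays, changed by -1.11 (SE 0.42, adjusted p = 0.0562) in males, just short of the threshold. Leaving out male olfactory 2 (adjusted p = 0.0376), male olfactory 7 (0.0296) or male respiratory 7 (0.0295) brought it past, as did leaving out male respiratory 7 and female respiratory 8 together (0.00511), a pseudocount of 64 (0.0482) and age as a covariate (0.0465). Probe set 1370492_a_at, above background on 9 of 20 arrays, changed by -0.21 (SE 0.36, adjusted p = 0.737) in males. In females it read 9 and 50 in olfactory epithelium, neither above background, against 52 to 89 in respiratory epithelium, a separation of at least 1.24-fold that did not pass (adjusted p = 0.184). At these signals a tissue difference in Flt1 was not settled.

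Tek (1393067_at), the angiopoietin receptor, read 68 to 189 with a median of 91.6 in male olfactory epithelium, against 190 to 475 with a median of 350.0 in male respiratory epithelium. The highest olfactory and the lowest respiratory array nearly touched. Female olfactory arrays read 59 and 119, against 333 to 445 with a median of 412 in female respiratory arrays. The change was -1.49 (SE 0.25, limma adjusted p = 9.00e-05), 2.81-fold lower, in males and -2.04 (SE 0.36, adjusted p = 0.000363), 4.11-fold lower, in females. Tek, like Ramp2, kept its call under all 24 male and all 18 female alternatives.

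Pecam1 (1371545_at), the junctional adhesion molecule, was at or near background in olfactory epithelium. It read 6 to 112 with a median of 39.9 in males, above background on 3 of 6 arrays, and 8 and 52 in females, above background on neither. Respiratory arrays read 127 to 374 with a median of 259 in males and 92 to 316 with a median of 229 in females, all above background. The change was -2.28 (SE 0.40, limma adjusted p = 0.000133), 4.84-fold lower, in males, and in females the signal was at least 3.42-fold lower (adjusted p = 0.00389). The female call was lost without female olfactory 6 (adjusted p = 0.176), where the only olfactory array left was not above background.

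Vwf (1389234_at), the clotting protein gene, was called in neither sex. Male olfactory arrays read 148 to 254 with a median of 206, against 256 to 289 with a median of 277 in male respiratory arrays. The male groups did not overlap, yet the change of -0.44 (SE 0.22, limma adjusted p = 0.148), 1.36-fold lower, did not pass. Female olfactory arrays read 269 and 347, against 180 to 492 with a median of 298 in female respiratory arrays, and the change was 0.07 (SE 0.30, adjusted p = 0.91).

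**Figure D2:**
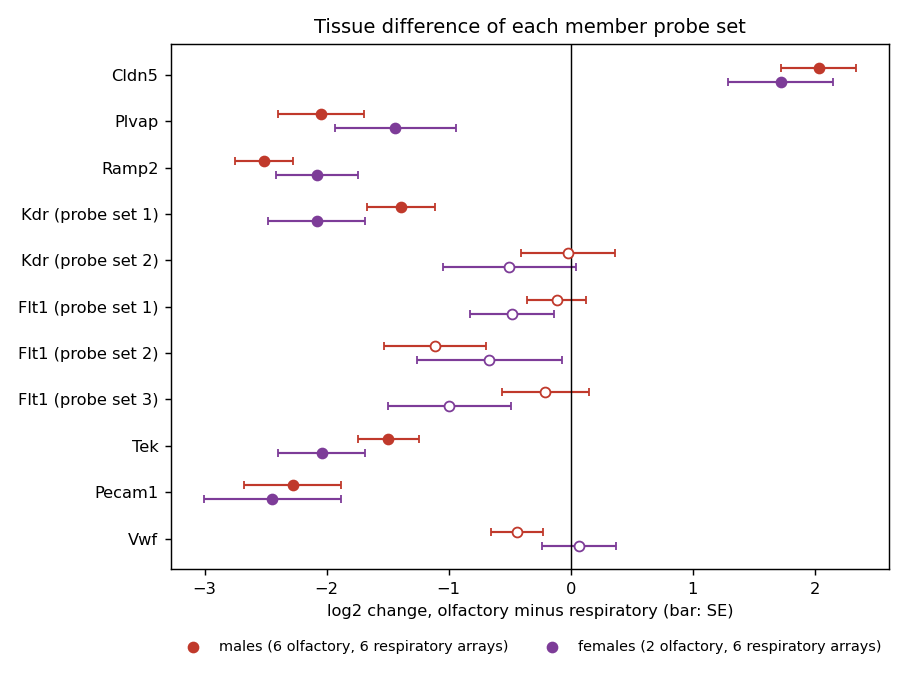
Log2 change, olfactory minus respiratory, of each of the 11 probe sets in males (red) and females (purple); points are limma estimates, filled where called, and bars are standard errors, with Kdr probe sets in the order 1367948_a_at, 1397868_at and Flt1 probe sets in the order 1369087_at, 1377113_at, 1370492_a_at. Cldn5 stands at 2.03 in males and 1.72 in females, right of 0, and Ramp2 at -2.52 in males and -2.08 in females, left of it.

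The 7 rats with both tissues allow the same contrast within an animal. Olfactory minus respiratory log2 signal of Cldn5 was above 0 in 7 of 7 rats, from 1.13 to 2.51 with a median of 1.73. Ramp2 was below 0 in 7 of 7 rats, from -2.85 to -1.29, and Tek in 7 of 7, from -2.62 to -0.37. Plvap, Kdr 1367948_a_at and Pecam1 were also lower in olfactory epithelium in each rat, but some of these olfactory signals were not above background and then give no exact difference. Over rats with both signals above background, Plvap ran from -2.23 to -0.93 (6 rats), Kdr from -2.12 to -0.27 (6 rats) and Pecam1 from -2.21 to -0.79 (3 rats, with olfactory Pecam1 not above background in the other 4). Vwf was lower in 6 of 7. The signs of Ramp2, Tek, Plvap, Kdr 1367948_a_at and Pecam1 add nothing to the group comparison. Their olfactory and respiratory arrays did not overlap in either sex, which fixes the direction in each rat. The same holds for Vwf in males and for Cldn5 in females. In males, Cldn5 overlapped only between olfactory 3 (1117) and respiratory 7 (1119), which are different rats. Its sign in 7 of 7 rats thus adds almost nothing either.

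**Figure D3:**
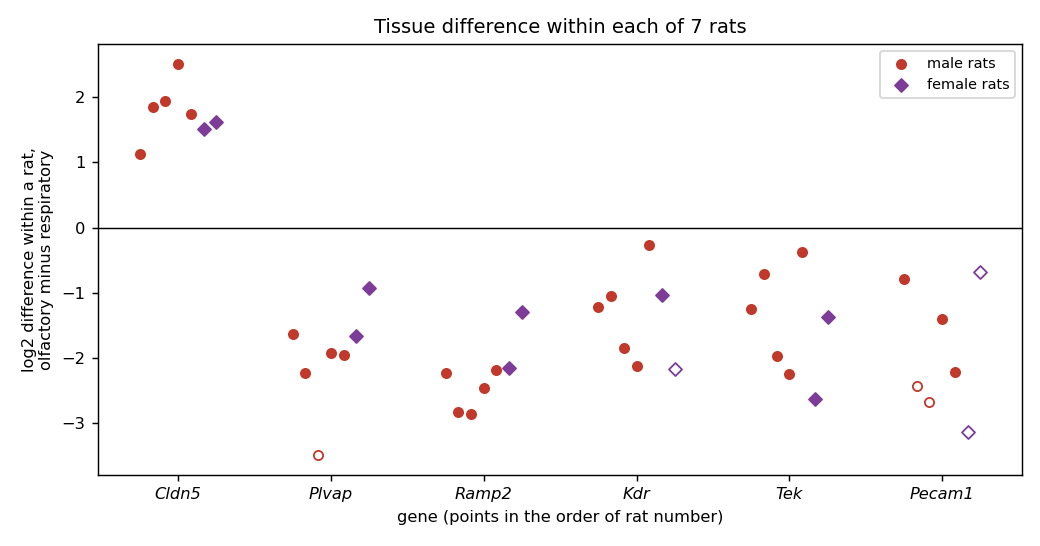
Log2 difference, olfactory minus respiratory, of 6 called probe sets within each of the 7 rats with both tissues (Kdr is 1367948_a_at); each point is 1 rat, males as red circles and females as purple diamonds, open where the olfactory signal was not above background. All points of Cldn5 lie above 0, from 1.13 to 2.51, and all points of the other 5 genes lie below it.

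Set against Cldn5 on the same array, the other members shifted further, by construction. Each ratio change is the member's own change minus the 2.03 of Cldn5, so the ratios restate the changes given above. The log2 ratio of a member to Cldn5 changed between male olfactory and male respiratory epithelium by -4.55 (SE 0.36) for Ramp2, -4.31 (SE 0.54) for Pecam1, -4.08 (SE 0.36) for Plvap, -3.53 (SE 0.47) for Tek, -3.42 (SE 0.48) for Kdr 1367948_a_at and -2.47 (SE 0.42) for Vwf. All 10 probe sets passed as lower, with limma adjusted p from 8.51e-11 for Ramp2 to 0.000855 for Kdr 1397868_at. This count carries no information about these genes, since 93.0% of all 31041 other probe sets were lower against Cldn5 as well. The median over the 10 was -3.28, against -2.07 over all probe sets. For Vwf, Kdr 1397868_at (-2.05) and Flt1 1369087_at (-2.15) and 1370492_a_at (-2.24), the change against Cldn5 thus lay near that of the array as a whole.

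No sex difference passed the test in these genes. None of the 11 probe sets was called between females and males in respiratory epithelium, where limma called 8 of 31042 probe sets (0.0258%) and where 1 member, Flt1 1370492_a_at, had an unadjusted p under 0.05 (change 0.80, female minus male). None was called between females and males in olfactory epithelium, where 0.0419% of all were called and 0 members had an unadjusted p under 0.05. Vwf was the member whose groups did not overlap there, with 269 and 347 on female olfactory arrays against 148 to 254 on male olfactory arrays, a change of 0.59 (SE 0.30), where 5.85% of all probe sets had no overlap. The difference of the tissue contrasts, female minus male, was called for 0 members, and for 0 at an unadjusted p under 0.05, with 0 of 31042 called in all (0.0%). The largest such difference of contrasts among the members was 0.79 in size. With 2 female olfactory arrays, these comparisons leave wide intervals and do not show that the sexes are alike.

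Once each group's mean was removed, the members did not vary together as a block. Over the 20 arrays, the log2 signals of Cldn5 and Plvap correlated with r = 0.75, of Plvap and Ramp2 with 0.62, and of Cldn5 and Ramp2 with 0.38. Cldn5 had r = -0.35 with Tek, -0.24 with Kdr 1367948_a_at, -0.11 with Pecam1 and 0.02 with Vwf. Cldn5 and Plvap, which oppose each other between the tissues, thus varied together among arrays of a tissue, with r = 0.93 over the 8 olfactory and 0.44 over the 12 respiratory arrays. The value was 0.72 without male respiratory 7 and female respiratory 8, arrays set apart by earlier results of these data. Flt1 1377113_at had r = 0.71 with Kdr 1367948_a_at and 0.57 with Tek, and Kdr had 0.39 with Tek. These are descriptions with no test: arrays share scaling and depth of signal, and the median signal of an array correlated with Cldn5 by -0.58, with Plvap by -0.42 and with Tek by 0.60. Of 9765 genes above background on all arrays, 465 (4.76%) followed Cldn5 at least as closely as Plvap did.

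The genes closest to Cldn5 on this measure were Rnf187 (r = 0.93), Aven, Igfbp2, Myl9 and Eif3f (0.90 each). With the group means kept, so that the tissue difference counts, the closest were Selenow (0.97), Gpr37l1, Abhd12 and Klhl25 (0.96 each) and Fam181b (0.95). For Pecam1 the closest within groups were Calr (0.86), Gmeb2 (0.81), RT1-S3 (0.80), Krt23 (0.79) and Timmdc1 (0.78). No member of the endothelial set was among these, but only genes above background on all arrays were compared. Of the members, only Cldn5, Ramp2, Tek and Vwf met this, so the absence of the others carries no information. Pecam1 itself was above background on 15 of 20 arrays, so its correlations include signals at or under background.

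Wider lists of vascular genes, none of which holds any of the 8 members, were read with 1 probe set per gene, in males unless stated. Some genes stand in more than 1 list, among them Tie1, Ptprb, Nrp1, Flt4 and Selp, so the counts of the lists are not independent. Of 14217 named genes 14.0% were called higher and 17.8% lower in olfactory epithelium, with a median change of -0.05. Of 30 pan-endothelial genes measured, 15 were lower and 1 was higher, with a median of -0.88. Sox7, an endothelial transcription factor, was lower by 2.74 on the log2 scale (SE 0.30, limma adjusted p = 3.64e-07), with signals of 11 to 74 on male olfactory arrays against 248 to 336 on male respiratory arrays. Icam1, a leukocyte adhesion molecule that other cells also carry, changed by -1.97 (SE 0.33) and Clec14a, an endothelial surface lectin, by -1.97 (SE 0.32). The 1 gene called higher was Lmo2, a transcription cofactor of blood and endothelial development, with a change of 1.00 (SE 0.16). Its signals were 2008 to 3050 on male olfactory arrays against 851 to 1628 on male respiratory arrays. The genes of the list that were not called changed by -0.96 (Erg) to 0.33 (Gpihbp1). In females 10 of the 30 were lower and 1 was higher, with a median of -0.86, where 10.9% of all named genes were higher and 11.6% lower, with a median of -0.03. Sox7, Clec14a and Lmo2 were called in females in the same directions, and Icam1 was not (-1.01, adjusted p = 0.139). With RNA integrity as a covariate 8 of the 30 were lower in males.

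Of 20 genes of vascular endothelial growth factor and angiopoietin signalling, 9 were lower and 1 was higher, with a median of -0.39. Vegfa, the ligand of Kdr and Flt1, read 95 to 290 in male olfactory epithelium, against 382 to 1664 in male respiratory epithelium, a change of -2.45 (SE 0.33, limma adjusted p = 5.96e-06), and -2.76 in females (adjusted p = 0.000273). Ptprb, the phosphatase that acts on Tek, changed by -1.96 (SE 0.25). Angpt1, a ligand of Tek, was above background on no male olfactory array and at least 1.35-fold lower there (adjusted p = 0.000452). Nrp1, a co-receptor, was higher by 0.65 (SE 0.21, adjusted p = 0.0225), a call lost without male olfactory 2, male olfactory 3, male respiratory 4 or male respiratory 7 (adjusted p 0.0519 to 0.0548). In females 5 of the 20 were lower and 0 higher, with a median of -0.51. Ptprb was called there, but Nrp1 (0.30, adjusted p = 0.539) and Angpt1 (-1.20, adjusted p = 0.0781) were not. With RNA integrity as a covariate 4 of the 20 were lower and 0 higher in males.

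For the adrenomedullin system in which Ramp2 acts, 3 of 9 genes were lower and 0 were higher, with a median of -0.41. Adm, the ligand, read 67 to 157 in male olfactory epithelium, against 599 to 1509 in male respiratory epithelium, a change of -2.76 (SE 0.31, limma adjusted p = 5.64e-07). Calcb, a related peptide, changed by -3.72 (SE 0.47) and Calcrl, the receptor that Ramp2 joins, by -1.07 (SE 0.28, adjusted p = 0.00603). The Calcrl call was lost with the rat as a fixed block over the 5 males with both tissues (-1.01, adjusted p = 0.0501), in rats of 11 weeks (adjusted p = 0.0631) and with RNA integrity as a covariate (adjusted p = 0.324). Ramp1 (-0.43) and Ramp3 (-0.41), the other partners of this receptor, were not called. In females 2 of the 9 were lower and 0 higher, with a median of 0.01. Calcrl was not called there (-1.10, adjusted p = 0.0552).

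Of 7 genes listed for caveolae and fenestrae, 3 were lower and 1 (Nrp1, described above) was higher, with a median of -0.93. Cav1, the main coat protein of caveolae, read 557 to 850 in male olfactory epithelium, against 2571 to 3638 in male respiratory epithelium, a change of -2.23 (SE 0.15, limma adjusted p = 6.28e-10). Cav2 changed by -1.42 (SE 0.23) and Cavin2 by -1.29 (SE 0.28), a call lost with RNA integrity as a covariate (adjusted p = 0.161). In females 4 of the 7 were lower and 0 higher, with a median of -0.95. Caveolae also occur in cell types other than endothelium.

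Other junction and barrier genes went both ways. Of 22 tight junction genes, 4 were higher and 6 lower, with a median of -0.22. Among the higher ones, Cldn6 changed by 2.54 (SE 0.52), Cldn12 by 1.27 (SE 0.21) and Cldn11 by 1.08 (SE 0.31). Among the lower ones, the epithelial claudins Cldn8 and Cldn4 changed by -2.00 (SE 0.18) and -1.32 (SE 0.27), and Cldn22 by -2.16 (SE 0.25). Of 16 brain barrier genes, 1 was higher and 4 were lower, with a median of 0.08. The higher one was Slc7a5, an amino acid carrier, which read 697 to 1398 in male olfactory epithelium, against 298 to 569 in male respiratory epithelium, a change of 1.23 (SE 0.20, limma adjusted p = 7.52e-05). Foxq1 changed by -1.51 (SE 0.21), Slc2a1, the glucose carrier, by -0.87 (SE 0.24), and Lsr, a protein of junctions where 3 cells meet, by -0.85 (SE 0.17). With RNA integrity as a covariate, Cldn6, Cldn11, Cldn4, Slc7a5, Slc2a1 and Lsr lost their calls (adjusted p 0.0605 for Cldn6 to 0.610 for Cldn11), and 1 tight junction gene was higher and 3 lower. Of the brain barrier genes 0 were then higher and 1 was lower. Cldn11 also lost its call in rats of 11 weeks (adjusted p = 0.0544). In females 3 tight junction genes were higher and 6 lower, and 2 brain barrier genes were higher and 2 lower. Cldn11 and Lsr were among those not called there.

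Of 8 genes of Vwf and platelets, 3 were lower and 0 higher, with a median of -0.66. The platelet chemokine Pf4 changed by -1.72 (SE 0.35), the integrin Itgb3 by -1.66 (SE 0.35) and the selectin Selp by -1.06 (SE 0.28). Of 14 genes of mural cells, the pericytes and smooth muscle that wrap vessels, 1 was higher and 3 were lower, with a median of -0.38. Rgs5, a pericyte gene, read 1113 to 2668 in male olfactory epithelium, against 372 to 662 in male respiratory epithelium, a change of 1.73 (SE 0.24, limma adjusted p = 8.20e-06), and 1.85 in females (adjusted p = 0.00059). The mural genes Cnn1 (-0.94, SE 0.25), Mcam (-0.87, SE 0.30) and Myh11 (-0.83, SE 0.17) went the other way, and the call of Mcam was lost in 8 of 12 fits without 1 male array (adjusted p up to 0.0843). Of 8 lymphatic genes, 6 were lower and 1 was higher, with a median of -0.93. Ccl21 changed by -1.72 (SE 0.33), Flt4 by -1.17 (SE 0.32) and Mmrn1 by -1.13 (SE 0.26), while Reln, which neurons and other cells also make, changed by 1.46 (SE 0.24). With RNA integrity as a covariate 1 platelet list gene and 2 lymphatic genes were lower, and Itgb3, Selp, Mcam, Flt4 and Mmrn1 lost their calls. Selp also lost its call with the rat as a fixed block (-1.03, adjusted p = 0.0551) and in rats of 11 weeks (0.120), and Flt4 in rats of 11 weeks (0.0567). In females 3 platelet list genes were lower, and 1 mural gene was higher and 2 lower. Of the lymphatic genes 3 were lower and 0 higher there, with a median of -0.47. Flt4 changed by 0.04 in females (adjusted p = 0.967), and Mmrn1, Reln, Itgb3 and Cnn1 were not called.

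**Figure D4:**
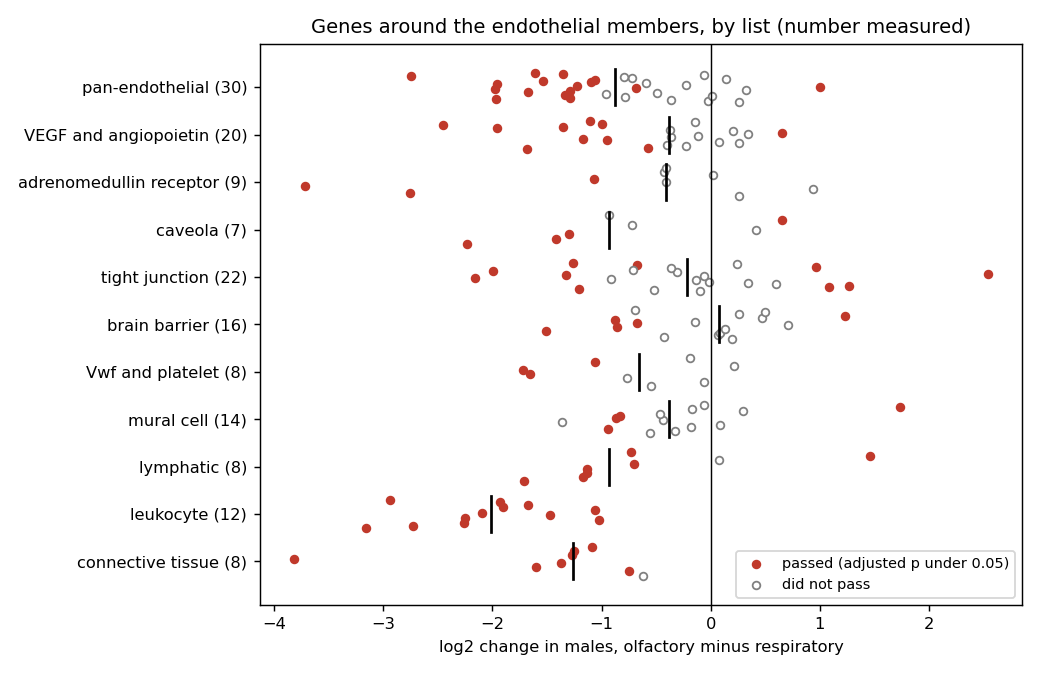
Log2 change, male olfactory minus male respiratory, of each measured gene in 11 lists, with the number measured in brackets; points are genes, filled where called, and black lines are list medians. The medians run from -2.01 for leukocyte genes to 0.08 for brain barrier genes, with -0.88 for pan-endothelial genes.

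Other cell types moved with the tissue as well, and their part in the members' differences was not tested. Leukocytes also carry Pecam1. Of 12 leukocyte genes, 12 were lower in male olfactory epithelium, with a median of -2.01, and their summed signal was 2586 to 4497 on male olfactory arrays, against 10650 to 26054 on male respiratory arrays. In females the sums were 2764 and 3475 in olfactory epithelium, against 8375 to 30093 in respiratory epithelium. Of 8 connective tissue genes, 7 were lower and 0 higher, with a median of -1.26. The 7 olfactory neuron genes were all higher, with a median of 3.84, and 4 of 5 glia genes were higher, with a median of 2.02. Of 10 airway epithelium genes 4 were lower, with a median of -0.62, and of 5 erythrocyte genes 2 were lower, with a median of -0.67. The 30 pan-endothelial genes summed to 5290 to 7954 on male olfactory arrays, against 6833 to 12024 on male respiratory arrays, so the sums overlapped. In females they were 6267 and 6822 on olfactory arrays, against 8476 to 11720 on respiratory arrays, and did not overlap. Such sums weigh bright probe sets most and are not amounts of RNA. Lmo2, the 1 gene called higher beside 15 lower, gave 2008 to 3050 of the signal on male olfactory arrays. It gave 851 to 1628 on male respiratory arrays. With RNA integrity as a covariate, 5 leukocyte and 4 connective tissue genes were lower and 2 glia genes were higher in males.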

How the data were processed

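Total RNA was labelled with biotin and put on Affymetrix rat arrays, per the labels. The deposited intensity values are linear signals per probe set. The submitters' processing notes list GCOS 1.0, with no algorithm or scaling target stated. A trimmed mean (2% off either end) of 500.1 to 500.3 on each array shows that the authors scaled the intensity values before they were deposited. Of 31099 probe sets, 57 controls were left out. The platform annotation named a single symbol for 20826 probe sets, more than 1 for 436, and 9780 went without; Entrez identifiers served to update them.

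limma 3.58.1 in R 4.3.3 fitted 4 group means on log2(signal + 16) over 20 arrays, with an intensity trend, tested on simulated data first. Each array's background was taken from its 27 bacterial control probe sets, at percentile 95. Where a whole group lay at or under it, a lower bound on the fold replaces the change. The Cldn5 comparison subtracted that probe set's log2 signal on each array and was fitted over 31041 others.

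All member probe sets are named, with up to 3 list genes per direction by size among male calls, a few uncalled partners (Ramp1, Ramp3) chosen after their values were seen, and the 5 genes most like Cldn5 or Pecam1. The members and lists were chosen with earlier results of these data known. Alternatives were pseudocounts of 1 and 64, quantile normalization, a background filter, no trend, RNA integrity, age, each array left out and the rat as a block. Same-numbered labels of a sex mean the same rat, so 7 rats pair the tissues. Deviations from group means correlated by -0.184 to 0.246 within a rat, and the consensus correlation was 0.0386: the labels alone carry the pairing. The series text names 9 rats of each sex, and 13 rats are analysed here. The arrays of a group are different rats.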

Additional observations from a re-analysis of the deposited data

Results flagged for a closer look

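In 2 of 33 groups of 6 arrays, 1 array lay far from the others by Dixon's test. That test was on linear signals, not on the log2 scale of the fits. Chance gives about 5% of groups, so this count is near chance. Cldn5 in respiratory epithelium of male 7 had a signal of 1119, against 279 to 579 on the other 5 male respiratory arrays. Without this array the male change of Cldn5 was 2.26 (limma adjusted p = 2.53e-06). The Omp signal of the same array was 2944, within the range of its group. Kdr 1397868_at in respiratory epithelium of male 3 had a signal of 49, against 6 to 19 on the other 5 arrays, and the other 5 were not above background.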

How the results depend on the processing

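With RNA integrity as a covariate, the female calls dropped to 2 of 11 probe sets, the male calls to 4, and those against Cldn5 in males to 5 of 10; over all probe sets 2347 were called in males, against 7824, 1133 in females, against 5571, and 8458 against Cldn5, against 29042. That model holds 17 arrays, and the same arrays without the covariate gave 7203 in males. Leaving out each array in turn gave 6 to 7 male calls, 3 to 6 female calls (3 without either female olfactory array) and 10 to 10 calls against Cldn5, and 0 calls between the sexes. With the rat as a replicate block, random over all arrays or fixed over the 5 males with both tissues, 6 member probe sets were called in males, and 6 in females with the random block, so the block changed no member call. Changes that turned sign were never past the threshold before or after. Kdr 1397868_at in males became 0.012 with a pseudocount of 64 and 0.0064 with the fixed block (-0.29 to 0.20 without 1 array), Flt1 1369087_at 0.35 with RNA integrity, and Flt1 1370492_a_at 0.11 with the fixed block and 0.016 in rats of 11 weeks. In females Flt1 1377113_at became 0.070 and the list gene Flt4 -0.51 with RNA integrity (Flt4 -0.14 to 0.19 without 1 array), and Vwf -0.062 without male respiratory 7 and female respiratory 8 (-0.11 to 0.24 without 1 array). The female Plvap call was also lost with a pseudocount of 1 (adjusted p = 0.0667), quantile normalization (0.113), RNA integrity (0.0631) and no trend (0.0573), and female Cldn5 was 0.73 with RNA integrity (0.471). In olfactory epithelium 13 probe sets were called between the sexes, against 29 with a pseudocount of 1, 22 with quantile normalization, 27 on arrays with a number and 23 without a trend. Signals near background limit Kdr 1397868_at, Flt1 and olfactory Pecam1.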

Other observations

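Cldn5 and Plvap varied with age among male olfactory arrays, a pattern noticed in the values and then fitted on them. Cldn5 read 1284, 1596 and 1117 at 11 weeks, 2218 at 13 weeks and 3761 and 3951 at 14 weeks in male olfactory epithelium. Plvap read 91, 101 and 29 at 11 weeks, 146 at 13 weeks and 258 and 295 at 14 weeks, where the 29 was not above background. With a slope per week in each group, limma gave 0.59 (SE 0.12, adjusted p = 0.0456) for Plvap, 0.50 (SE 0.11, adjusted p = 0.0487) for Cldn5 and 0.29 (SE 0.09, adjusted p = 0.0740) for Ramp2 on the log2 scale, higher with age in this cross-section of 6 rats. Since the pattern was seen before the fit, these adjusted p values describe it and do not test it. Slopes were called for 265 of 31042 probe sets (0.854%). Kdr 1367948_a_at (0.01, adjusted p = 0.967), Tek (-0.08, adjusted p = 0.766), Pecam1 (-0.03) and Vwf (0.02) were not called. The female olfactory arrays read 1827 at 13 weeks and 1804 at 14 weeks for Cldn5. On the male olfactory arrays the array's median signal was also lower with age. It was 158, 188 and 176 at 11 weeks, 153 at 13 weeks and 150 and 139 at 14 weeks. RNA integrity was 8.4, 8.8 and 8.8 at 11 weeks and 8.2 and 8.5 at 14 weeks. The correlation of Cldn5 and Plvap over the olfactory arrays includes the age pattern of both genes. Collection or scan batches are not known from the sources used here. Effects of age, array signal level, RNA integrity and a batch that follows age cannot be told apart.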
